A study of Homo sapiens with 12 samples.

Results

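The data concern ICAM1 and 9 genes of NF-kB signalling (NFKB1, NFKB2, RELA, RELB, TRAF1, BIRC3, NFKBIA, TNFAIP3 and IL6), 10 of the 58302 genes listed for these libraries. The members were chosen by name with the differences between the edited clones and the parental line already known, so those differences, and which of them pass the threshold of a call, are given below as a description, with no p-value. All 10 passed the filter on low values, at least 1 per 1000000 in at least 3 libraries, as did 16027 genes in all; ICAM1 passed it only through the parental libraries, where it is high.

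NF-kB is a family of transcription factors that bind DNA as dimers. In the canonical arm, dimers of the NFKB1 product and RELA are held in the cytoplasm by NFKBIA (IkBα) until an IkB kinase marks the inhibitor for degradation. In the noncanonical arm, the kinase MAP3K14 (NIK) leads to trimming of the NFKB2 precursor, and the product acts with RELB. ICAM1 is a cell surface adhesion molecule that leukocyte integrins bind, and it is a long known NF-kB target that inflammatory cytokines induce in thyroid follicular cells.

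RNA was sequenced from TPC1 (genotype wt), a cell line derived from papillary thyroid cancer, and from 3 Dicer1 (+/-) derivatives of it named D11, WB1 and TD5, with 3 libraries per line and no other treatment. Dicer1 cuts miRNA precursors into mature miRNAs. Each derivative is 1 clone grown from a single cell after transient transfection of a CRISPR/Cas9 plasmid with a guide to Dicer1, so a difference from TPC1 can belong to the clone as much as to the allele, and clone and allele cannot be told apart within 1 clone. No cloning of the TPC1 cells is described in the sources used here. The authors state in general that experiments were repeated independently at least 3 times. Whether the sequenced libraries of a line came from separate cultures is not stated, so p-values measure only the spread between these libraries.

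The values are reads per gene that the authors scaled to 20000000 aligned reads and rounded up, called scaled reads here. From the steps between the whole numbers, 12700000 to 21020000 reads lay behind a library, and 3 reads corresponded to 2.85 to 4.72 scaled reads, which covers counting error only. DICER1 had 1360, 1129 and 1101 scaled reads in TPC1, 977, 1051 and 1093 (D11), 881, 939 and 815 (WB1), and 643, 627 and 809 (TD5), lower in every clone library than in every TPC1 library. The log2 fold changes were −0.19, −0.43 and −0.77, called (limma adjusted p under 0.05 and at least 1.5-fold) in TD5 and, after GC correction (−0.63), in WB1. PAX8, a thyroid transcription factor, had 7248 to 9879 scaled reads and the keratins KRT8 and KRT18 were high, but the other 3 of 5 epithelial markers, KRT19, EPCAM and CDH1, were at 6 or less in every library. The thyroid markers TSHR, SLC5A5 and NKX2-1 were at 0 in every library and TG, the thyroglobulin gene, had 11 to 27. The 5 leukocyte markers summed to 2 to 9 scaled reads and the 4 endothelial markers to 0 to 9. The 6 fibroblast markers summed to 257 to 362 in TPC1, 165 to 203 in D11, 235 to 355 in WB1 and 187 to 219 in TD5, with DCN at 0 throughout, and their part in the results was not tested.

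Stretches just upstream of RefSeq transcript starts of the members are shown because several hold letters like those NF-kB dimers bind. Promoter windows from RefSeq on GRCh38.p14, 250 bases before to 50 after a start, were found for 9 of the 10 members. There was no entry for RELB. Both strands were searched for GGGNNTTTCC and for GGAANTTCC, where N is any base. Both motifs were chosen after these windows had been read, they can overlap each other, and the latter reads the same on both strands in its fixed letters. Either motif stood in 955 of all 35116 windows (2.72%), the longer in 1.91% and the shorter in 0.965%. Among the members, 8 of 15 windows held one, in 7 genes, and the 5 windows of RELA and TRAF1 held none. The stretches are written 5′ to 3′ on the gene's strand, with the match in capitals.
ICAM1 (chr19:10270924-10270952, plus strand): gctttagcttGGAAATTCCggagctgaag
NFKB2 (chr10:102394490-102394519, plus strand): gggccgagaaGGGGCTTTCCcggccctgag
NFKB2 (chr10:102395674-102395703, plus strand): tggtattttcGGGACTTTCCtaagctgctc
NFKB1 (chr4:102501300-102501329, plus strand): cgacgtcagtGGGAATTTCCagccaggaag
IL6 (chr7:22727117-22727146, plus strand): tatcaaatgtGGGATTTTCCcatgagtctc
NFKBIA (chr14:35404811-35404840, minus strand): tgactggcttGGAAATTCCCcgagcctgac
BIRC3 (chr11:102317275-102317304, plus strand): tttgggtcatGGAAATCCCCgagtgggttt
TNFAIP3 (chr6:137867182-137867211, plus strand): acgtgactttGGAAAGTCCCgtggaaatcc
The ICAM1 match begins at base −186 from the start and the BIRC3 match at −199, while the others lie at −81 to −21. The stretches of NFKB2 and IL6 lie inside the annotated gene, upstream of starts other than its first. In BIRC3, NFKBIA and TNFAIP3 the longer motif is read on the opposite strand, and TNFAIP3 has another match at −55. A match is a run of letters and was not tested as a binding site. Genes that were much lower in the clones (ICAM1, NFKB2) and genes that were not (NFKB1, BIRC3) both held one.

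ICAM1 (ENSG00000090339, GRCh38 chromosome 19, 10271093 to 10286615, plus strand) was nearly lost from all 3 clones. The TPC1 libraries had 95, 60 and 95 scaled reads of ICAM1. The D11 libraries had 3, 5 and 0, the WB1 libraries 4, 7 and 3, and the TD5 libraries 7, 2 and 4. Every clone library lay far below every TPC1 library, and most clone values lay near the level of 3 reads. The means were 83.3 ± 20.2 (SD, n = 3) in TPC1, 2.67 ± 2.52 in D11, 4.67 ± 2.08 in WB1 and 4.33 ± 2.52 in TD5. Summed over a line, about 215 ICAM1 reads were estimated for TPC1 against 6 for D11, 10 for WB1 and 8 for TD5. Per read of the line, TPC1 was then 33.0 times D11 (exact 95% interval for counting error 14.9 to 91.0), 21.0 times WB1 (11.2 to 44.5) and 22.2 times TD5 (11.1 to 52.0). Fewer cells that express a gene and less RNA per cell cannot be told apart in bulk RNA.

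**Figure D1:**
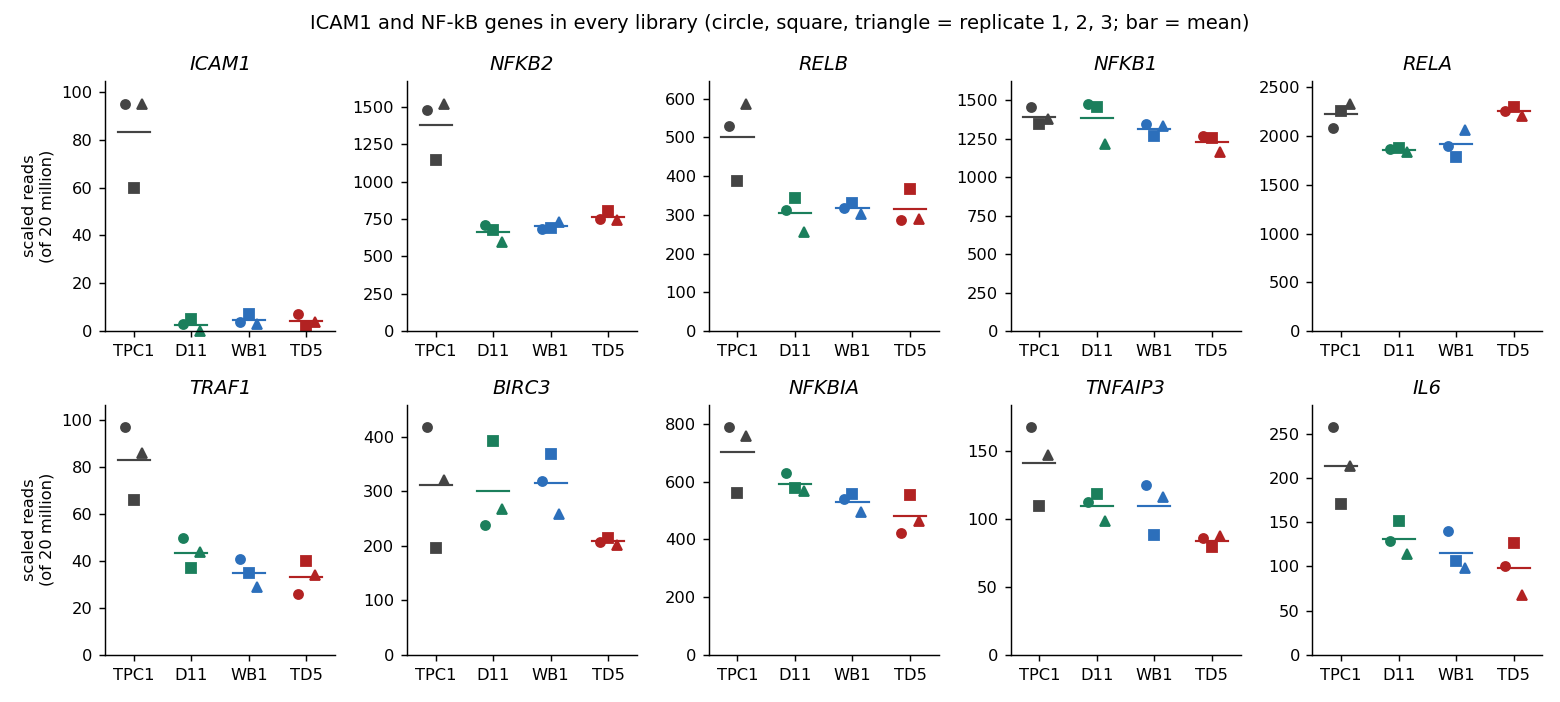
Scaled reads (of 20000000) of the 10 genes in each of the 12 libraries, 1 panel per gene with its own axis from 0; symbols mark replicates 1, 2 and 3 and bars the mean of each line. ICAM1 falls from 60 to 95 in TPC1 to 0 to 7 in the clones, NFKB2 from 1148 to 1522 to 595 to 805, while the TPC1 libraries of BIRC3 overlap all 3 clones and those of NFKB1 overlap D11.

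On the scale of the fit, log2(value per 1000000 + 1), the ICAM1 difference from TPC1 was −2.17 in D11, −2.05 in WB1 and −2.07 in TD5 (standard error 0.16 in each). The added 1 understates the change of a gene this low: over all alternatives the value ran from −4.34 to −0.94, the ends given by an added 0.1 and an added 4. In the clones ICAM1 stood at about the level of 3 reads, so a difference between clones was not detectable at this depth. TPC1 replicate 2 had the lowest ICAM1 of the TPC1 libraries, and it was the lowest of them for 9 of the 10 members, against 35.3% of all genes tested. Without it the ICAM1 differences were −2.35, −2.22 and −2.25.

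The tested genes around ICAM1 lay much closer to their TPC1 level. Of 17 other genes in the table annotated within 100 kb, 12 were tested and 0 were called by limma in any clone, with log2 fold changes from −0.35 to 0.29. On adjusted p alone, 6 passed in D11, 6 in WB1 and 0 in TD5, the 12 differences that passed all being lower and under 1.5-fold. The share of all genes that passed on adjusted p alone is not given here, so nothing is read from these counts. At an unadjusted p under 0.05 there were 7, 8 and 3, as were 44.6%, 42.7% and 27.1% of all genes tested. On one side lie MRPL4, a mitochondrial ribosomal protein gene (−0.29 in D11, −0.29 in WB1, −0.05 in TD5), and DNMT1, the maintenance DNA methyltransferase (0.06, −0.10 and 0.10). On the other side lie TYK2, a kinase of cytokine receptors (−0.02, 0.03 and 0.01), and ICAM3, another ICAM (−0.29, −0.34 and −0.13). The median of the 12 was −0.26 in D11, −0.27 in WB1 and 0.02 in TD5, against 0.05, 0.06 and 0.00 over all genes tested. The 12 are not all separate: AC011511.1 and FDX2 overlap on the same strand and had nearly the same values (−0.35 in D11 for both). ICAM4-AS1, which was too low to be tested, had 26, 11 and 25 scaled reads in TPC1 and 0 to 4 in the clone libraries, with no overlap. It shares 815 exonic bp with ICAM1 on the opposite strand and LIMASI (78 to 185 scaled reads) 61 bp, and whether the counting used strand is not given in the sources used here.

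**Figure D2:**
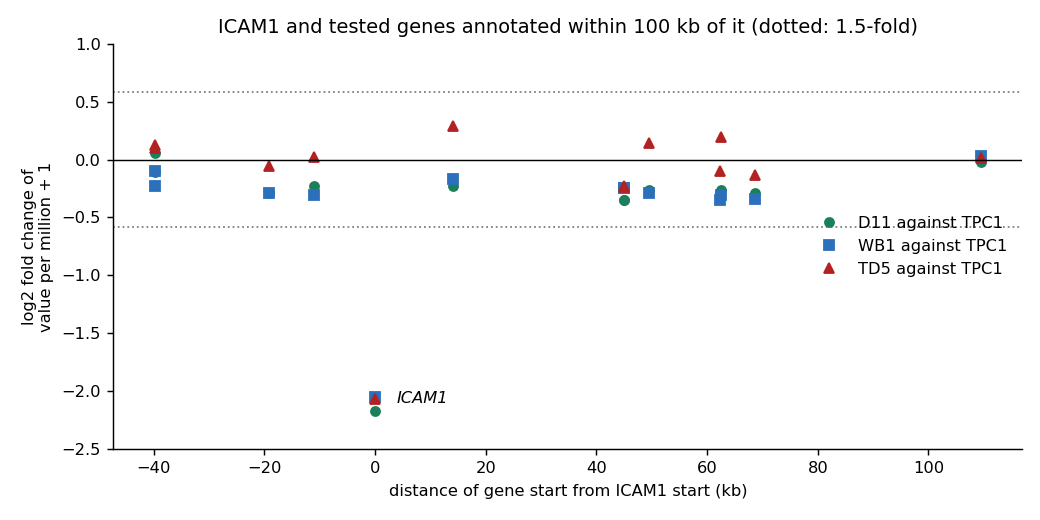
Log2 fold change against TPC1 of ICAM1 and of the 12 tested genes annotated within 100 kb, by distance of each gene's start from that of ICAM1 in kb; colours and symbols mark the 3 clones and dotted lines a 1.5-fold change. ICAM1 lies near −2 in all 3 clones and the neighbours between −0.35 and 0.29.

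The relatives and partners of ICAM1 were low or changed little. ICAM2 had 0 to 8 scaled reads, ICAM5 0 to 7 and ICAM4 0 in every library, so ICAM1 and ICAM3 (171 to 259) were the members of the family with clear reads in TPC1. Of the integrin chains that form its leukocyte receptors, ITGAL had 0 to 11 and ITGAM 0 to 3. ITGB2, their shared beta chain, had 90, 72 and 95 in TPC1, 64, 53 and 58 (D11), 88, 70 and 62 (WB1), and 41, 62 and 57 (TD5). Its log2 fold changes of −0.43 in D11 (limma adjusted p = 0.0296) and −0.53 in TD5 (0.0217) stayed under 1.5-fold, and WB1 was at −0.18 (0.342).

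The noncanonical subunits were both lower in the clones. NFKB2 (ENSG00000077150, chromosome 10, 102394110 to 102402524) had 1479, 1148 and 1522 scaled reads in TPC1, 714, 675 and 595 (D11), 682, 692 and 734 (WB1), and 749, 805 and 744 (TD5). No clone library reached the lowest TPC1 library. The log2 fold changes were −1.04, −0.95 and −0.83 (standard error 0.10), which leaves 47.8%, 50.8% and 55.4% of the TPC1 mean. These stayed past 1.5-fold in all 21 alternatives, from −1.16 to −0.75.

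RELB (ENSG00000104856, chromosome 19, 45001461 to 45038192), the partner of the trimmed NFKB2 product, had 529, 388 and 587 scaled reads in TPC1. The D11 libraries had 313, 343 and 257, the WB1 libraries 318, 332 and 302, and the TD5 libraries 287, 367 and 289. All clone libraries were below all TPC1 libraries, but the gap between 388 and 367 was narrow. The differences of −0.67, −0.61 and −0.63 (standard error 0.14) sat just past 1.5-fold, and 4, 6 and 5 of 21 alternatives brought them under it. After correction of each library for GC content, D11 was at −0.55 and WB1 at −0.48. Without TPC1 replicate 3 the 3 values were −0.55, −0.49 and −0.51, and without TPC1 replicate 1 WB1 was at −0.56 and TD5 at −0.58. The call was also lost in D11 without its replicate 3 (−0.565), in WB1 without its replicate 3 (−0.58) and in TD5 without its replicate 1 (−0.57) or 3 (−0.58).

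The canonical subunits stayed close to TPC1. NFKB1 (chromosome 4) had 1456, 1348 and 1376 scaled reads in TPC1, 1477, 1457 and 1218 (D11), 1344, 1268 and 1334 (WB1), and 1270, 1253 and 1165 (TD5). TPC1 and D11 overlapped, while WB1 and TD5 lay just below TPC1. The differences were −0.01, −0.08 and −0.18 (standard error 0.07), or −0.32, −0.32 and −0.23 after GC correction, and the longest NFKB1 transcript has a GC content of 36.0% against 62.4% for NFKB2.

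RELA, its main dimer partner on chromosome 11, had 2079, 2254 and 2329 scaled reads in TPC1, 1867, 1874 and 1832 (D11), 1901, 1783 and 2058 (WB1), and 2259, 2300 and 2207 (TD5). D11 and WB1 lay below TPC1 (−0.25 and −0.21, standard error 0.06) and TD5 did not (0.02). The clones themselves differed here: RELA was higher in TD5 than in D11 by 0.28 (limma adjusted p = 0.00523, or 0.0104 with the replicate number as a block) and than in WB1 by 0.24 (0.0208), with no overlap of libraries and both under 1.5-fold.

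**Figure D3:**
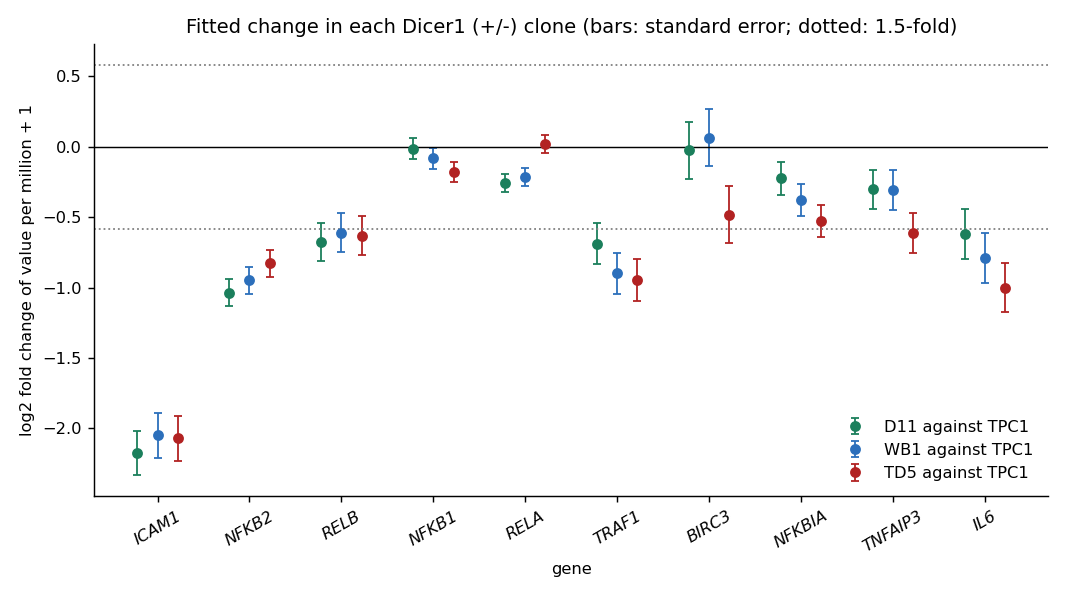
Fitted log2 fold change of each gene in each clone against TPC1 with its standard error (vertical bars), 3 libraries per line; dotted lines mark a 1.5-fold change. ICAM1 lies at −2.17 to −2.05 and NFKB2 at −1.04 to −0.83, whereas NFKB1 lies at −0.18 to −0.01.

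The balance between the precursor genes shifted within libraries. The ratio of NFKB2 to NFKB1 scaled reads was 0.991 ± 0.129 (SD, n = 3) in TPC1, 0.478 ± 0.013 in D11, 0.535 ± 0.024 in WB1 and 0.624 ± 0.029 in TD5. The lowest TPC1 library (0.852) lay above the highest clone library (0.643). These ratios were not corrected for GC content, in which the 2 genes differ. After that correction NFKB2 differed from TPC1 by −0.91 in D11, −0.83 in WB1 and −0.81 in TD5. NFKB1 then differed by −0.32, −0.32 and −0.23, so the gap between the 2 genes was smaller. The ratio of RELB to RELA was 0.226 ± 0.047 in TPC1 against 0.164 ± 0.022, 0.167 ± 0.020 and 0.139 ± 0.018, and its lowest TPC1 library (0.172) lay within the clones' range, which reached 0.186. Per kilobase of exon and per 1000000 reads, the TPC1 means were 20.3 for RELA, 12.4 for NFKB2, 8.36 for RELB and 4.44 for NFKB1. NFKB2 was at 5.92 in D11, 6.29 in WB1 and 6.86 in TD5 on that scale.

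**Figure D4:**
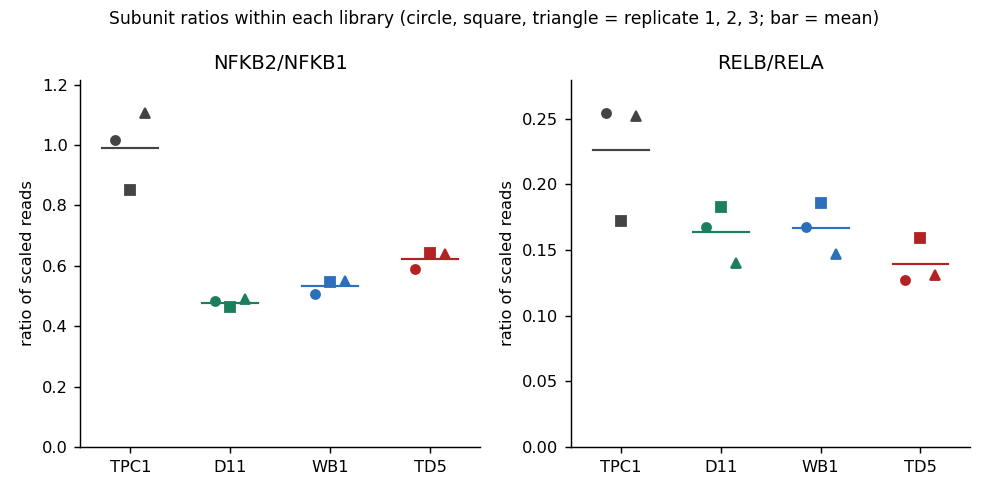
Ratio of scaled reads of NFKB2 to NFKB1 and of RELB to RELA in each of the 12 libraries, axes from 0; symbols mark replicates and bars means. The NFKB2 to NFKB1 ratio is 0.852 to 1.11 in TPC1 and 0.463 to 0.643 in the clones, and the RELB to RELA ratio overlaps. Neither ratio is corrected for GC content.

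Of the genes that act at the receptor complexes, TRAF1 was lower and BIRC3 was not. TRAF1 (chromosome 9), an adaptor of TNF receptors, had 97, 66 and 86 scaled reads in TPC1, 50, 37 and 44 (D11), 41, 35 and 29 (WB1), and 26, 40 and 34 (TD5). No libraries overlapped, and the differences were −0.69, −0.90 and −0.95 (standard error 0.15). With an added 4 in place of 1 they shrank to −0.40, −0.50 and −0.52, under 1.5-fold.

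BIRC3 (chromosome 11), the ubiquitin ligase cIAP2 that keeps NIK low, had 417, 196 and 321 scaled reads in TPC1, 238, 393 and 268 (D11), 319, 369 and 259 (WB1), and 207, 215 and 202 (TD5). The TPC1 libraries spanned the whole range of the clones. The differences were −0.02, 0.06 and −0.48 (standard error 0.20), and TD5 passed the threshold (−0.76) only without TPC1 replicate 2.

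The inhibitors made on NF-kB activation had their lowest means in TD5, but neither was called between clones. NFKBIA (chromosome 14) had 787, 561 and 757 scaled reads in TPC1, 630, 579 and 568 (D11), 540, 558 and 493 (WB1), and 421, 554 and 462 (TD5). TNFAIP3 (chromosome 6), the ubiquitin-editing enzyme A20 that shuts signalling off, had 167, 109 and 147 in TPC1, 112, 118 and 98 (D11), 125, 88 and 116 (WB1), and 86, 79 and 87 (TD5). D11 overlapped TPC1 in both genes, WB1 in TNFAIP3, and TD5 in neither. TD5 and WB1 overlapped in NFKBIA (−0.15, limma adjusted p = 0.41). TNFAIP3 in TD5 differed by −0.31 from D11 (0.117) and by −0.31 from WB1 (0.15), without overlap. Against TPC1, NFKBIA differed by −0.22, −0.38 and −0.53 (standard error 0.12) and TNFAIP3 by −0.30, −0.31 and −0.61 (0.14). The TD5 value of TNFAIP3 lost its call in 4 of 21 alternatives, an added 4 (−0.42) and leaving out TPC1 replicate 1 (−0.50), TPC1 replicate 3 (−0.58) or TD5 replicate 2 (−0.58). That of NFKBIA gained one without TPC1 replicate 2 (−0.675) or TD5 replicate 2 (−0.63).

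IL6 (ENSG00000136244, chromosome 7), the cytokine gene among the members, had 257, 171 and 213 scaled reads in TPC1, 129, 151 and 114 (D11), 140, 106 and 98 (WB1), and 100, 126 and 68 (TD5). All clone libraries were below all TPC1 libraries. The differences were −0.62, −0.79 and −1.0 (standard error 0.18), and the D11 value lost its call with an added 4 and without TPC1 replicate 1 or D11 replicate 3 (−0.47, −0.49 and −0.53). IL6 shares 428 exonic bp on the opposite strand with IL6-AS1, which had 19 to 76 scaled reads.

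As a set, members called lower numbered 5 of 10 in D11, the same number in WB1 and 6 in TD5. None was called higher (0 in each clone). ICAM1, NFKB2, RELB, TRAF1 and IL6 were called in all 3 clones, and TNFAIP3 in TD5. Among all genes tested, 1.95%, 1.59% and 1.48% were called lower and 2.89%, 3.39% and 1.12% higher. The same 5 genes had all 9 clone libraries below all 3 TPC1 libraries, as had 6.51% of genes tested. The median log2 fold change of the 10 was −0.46 in D11, −0.49 in WB1 and −0.62 in TD5. These comparisons share the TPC1 libraries and were known when the genes were chosen, so nothing is read from the counts. With an added 4, 3 members were called in each clone, and without D11 replicate 3 the count in D11 was 3.

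Between the clones, 0 of the 10 members were called by limma in any of the 3 pairs. At an unadjusted p under 0.05 there were 0 for WB1 against D11, 7 for TD5 against D11 and 3 for TD5 against WB1, as were 19.3%, 36.9% and 30.4% of all genes tested. Over all genes tested, 0.88% were called lower and 1.97% higher in WB1 than in D11, 2.32% and 1.67% in TD5 than in D11, and 1.72% and 0.611% in TD5 than in WB1. With all 12 libraries, RELA was the 1 member that passed on adjusted p. The nearest were NFKBIA in TD5 against D11 (−0.30, adjusted p = 0.0684) and BIRC3 in TD5 against WB1 (−0.55, 0.0823). The TPC1 libraries enter these tests through the shared estimate of the spread. Without TPC1 replicate 2 the adjusted p was 0.0306 for that NFKBIA difference, 0.0313 for that BIRC3 difference and 0.0443 for BIRC3 in TD5 against D11 (0.112 with it), all still under 1.5-fold.

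The rest of the pathway was taken as 73 further genes listed by role, of which 58 were tested. Of these 5.17% were called in either direction in D11, 6.9% in WB1 and 6.9% in TD5, against 4.84%, 4.99% and 2.6% of all genes tested. In D11 2 were called higher (IRAK4, NFKBIZ) and 1 lower (MYD88), in WB1 3 higher (IL1R1, NFKBIZ, BCL2A1) and 1 lower (TNFRSF13C), and in TD5 1 higher (NFKBIZ) and 3 lower (TLR4, CXCL1, CXCL8). The medians were −0.03, 0.12 and −0.03, against 0.05, 0.06 and 0.00 over all genes tested. All 10 tested genes of the kinase complexes, among them MAP3K14, CHUK, IKBKB and IKBKG, stayed uncalled by limma in every clone, as did REL, the remaining subunit. At an unadjusted p under 0.05, 9 of these kinase genes differed in D11 (44.6% of all genes tested), 8 in WB1 (42.7%) and 3 in TD5 (27.1%). Of 10 ligand genes only TNFSF12 passed the filter, and TNF, LTA, LTB, IL1A and IL1B had at most 14 scaled reads in any library. LTB, too low to be tested, had 4 to 14 in TPC1 and 0 to 3 in the clone libraries, with no overlap.

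**Figure D5:**
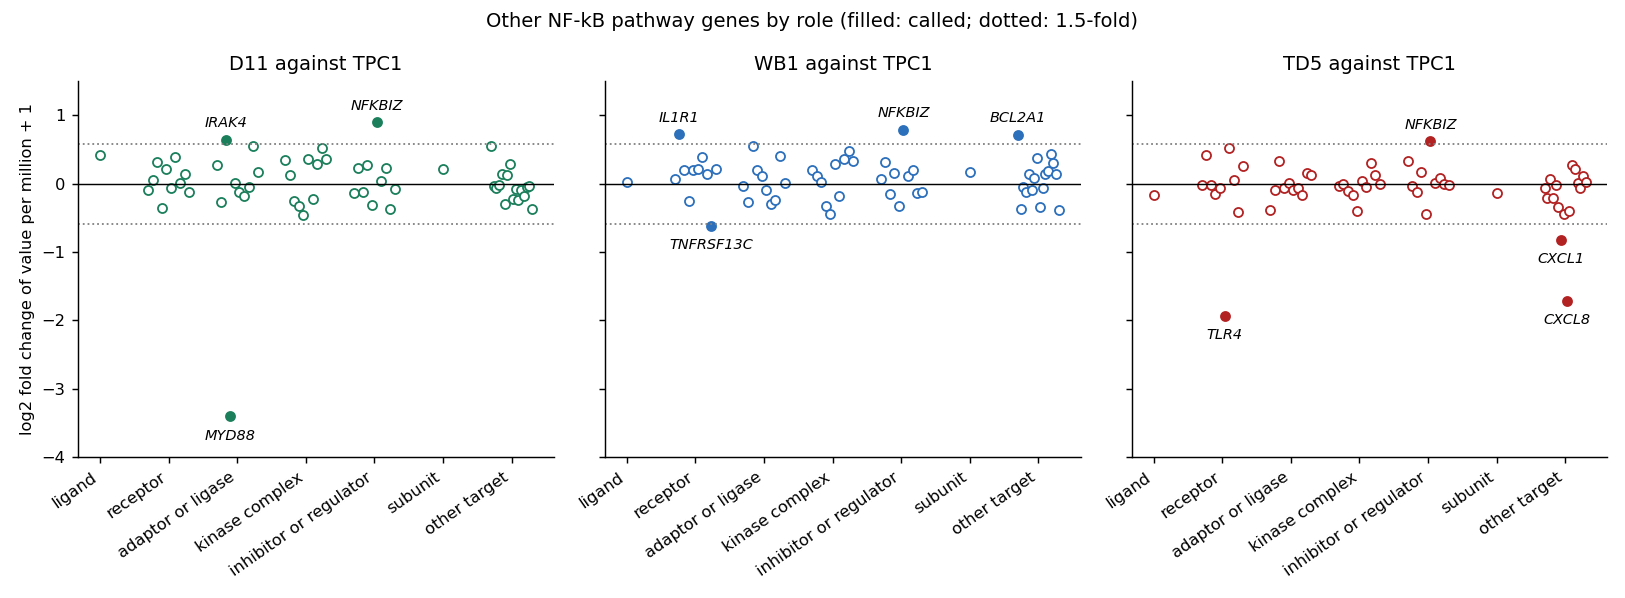
Log2 fold change against TPC1 of the 58 tested further pathway genes by role, 1 panel per clone and 1 point per gene; filled points are called and named, dotted lines mark 1.5-fold. NFKBIZ is above the upper line in all 3 panels, MYD88 lies at −3.40 in the D11 panel, and TLR4 and CXCL8 lie at −1.93 and −1.72 in TD5.

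NFKBIZ, a nuclear IkB protein that acts as a cofactor at part of the NF-kB targets and is itself one, rose in all 3 clones. It had 799, 769 and 600 scaled reads in TPC1, 1332, 1399 and 1324 (D11), 1226, 1375 and 1168 (WB1), and 1142, 1002 and 1194 (TD5). Every clone library lay above every TPC1 library. The differences were 0.90 (limma adjusted p = 7.52e-06), 0.79 (3.23e-05) and 0.62 (0.000578), the last lost with an added 4 (0.58), without TPC1 replicate 3 (0.49) and without TD5 replicate 3 (0.56).

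Among the signalling genes upstream, most of which were not called, MYD88 and TLR4 differed from clone to clone. MYD88, the adaptor of Toll-like and IL-1 receptors, had 266, 287 and 281 scaled reads in TPC1 but 7, 5 and 13 in D11 (−3.40, limma adjusted p = 6.16e-12), with 355, 280 and 333 in WB1 and 281, 286 and 231 in TD5. TLR4, the receptor for lipopolysaccharide, had 185, 159 and 147 in TPC1 and 19, 29 and 38 in TD5 (−1.93, 9.67e-08), with 135 to 201 in the other clones. Each was called in 1 clone and differed between clones: MYD88 was higher than in D11 by 3.60 in WB1 and 3.34 in TD5, and TLR4 was lower in TD5 than in D11 by a log2 difference of −1.86 and than in WB1 by −2.14.

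CXCL8 and CXCL1, chemokines that draw neutrophils, were lower in TD5 than in every other line. CXCL8 had 464, 309 and 417 scaled reads in TPC1, 315, 409 and 280 (D11), 407, 321 and 213 (WB1), and 81, 141 and 101 (TD5) (−1.72, limma adjusted p = 4.98e-05). CXCL1 had 977, 745 and 863 in TPC1 and 404, 527 and 507 in TD5 (−0.82, 0.000136), with 806 to 1004 in the other clones. TD5 differed from D11 and from WB1 in both genes, by −1.48 and −1.37 for CXCL8 and −0.95 and −0.91 for CXCL1. After GC correction CXCL8 was also called lower in D11 (−0.588) and WB1 (−0.603).

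The smaller calls were in WB1 and D11. IL1R1, the receptor of interleukin 1, was higher in WB1 (473, 360 and 428 scaled reads against 276, 232 and 230 in TPC1, 0.72, limma adjusted p = 0.000845). BCL2A1, an anti-apoptotic target, was higher there too (43, 49 and 56 against 22, 17 and 28, 0.71, 0.00179). TNFRSF13C, the BAFF receptor, which signals through the noncanonical arm, was lower in WB1 (20, 33 and 23 against 44, 55 and 49, −0.62, 0.00295), a call lost without TPC1 replicate 2 (−0.56) or WB1 replicate 1 (−0.535). IRAK4, a kinase that binds MYD88, was higher in D11 (356, 379 and 392 against 244, 256 and 204, 0.64, 0.000362), a call lost without TPC1 replicate 3 (0.55) and with median-of-ratios scaling (0.585). After GC correction BCL2A1 in WB1 (0.54), TNFRSF13C in WB1 (−0.555) and IRAK4 in D11 (0.47) were all under 1.5-fold.

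MAP3K14 (NIK) is added here after its values were seen. Of the 58 further pathway genes tested, it was 1 of 3, with LTBR and IKBKG, whose 9 clone libraries all lay below TPC1. Of all 16027 genes tested 6.51% did so, and nothing is read from this count. MAP3K14 had 992, 828 and 910 scaled reads in TPC1, 666, 671 and 636 (D11), 649, 678 and 658 (WB1), and 671, 746 and 639 (TD5). The differences were −0.45, −0.45 and −0.40, all under 1.5-fold and therefore not called. They are a description, with no p-value, because the gene was picked by these same values. LTBR differed by −0.35, −0.25 and −0.15 and IKBKG by −0.325, −0.32 and −0.17, also not called.

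The 5 genes nearest to ICAM1 over the 12 libraries were none of the members or further pathway genes. By the mean absolute difference between centred log2 values, the nearest were ZNF28 (0.200), SMIM10 (0.213), TMPRSS15 (0.215), LINC01234 (0.227) and CASP10 (0.285). This measure depends on the size of a fall as well as on its pattern. The other members fell far less than ICAM1, the most being −1.04 for NFKB2 in D11, so nothing is read from their absence. TMPRSS15 had 78 to 124 scaled reads in TPC1 and 0 to 3 in the clones. ZNF28 had 35 to 49 in TPC1 and 0 to 3 in the clones. With an added 0.1 and an added 4, 3 and 2 of these 5 were among the nearest 5.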

How the data were processed

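RNA-seq of 12 libraries was used, 3 each of TPC1, D11, WB1 and TD5, grouped by the titles in the labels. The authors mapped stranded mRNA libraries with STAR 2.5.3a to GRCh38, counted genes with HTSeq 0.9.1 and normalized to 20000000 aligned reads. What they deposited is this scaled table with values rounded up, handled here as a score, so edgeR, which the authors name, was not used. Library sums were 20009833 to 20014191, and depth was estimated from the gaps between whole numbers.

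Each value was taken per 1000000 of its library's sum. Tests used limma 3.58.1 (R 4.3.3, trend in the variance) on log2 of this value plus 1, with all 12 libraries and a mean for each line, for the 16027 genes that reached 1 per 1000000 in 3 or more libraries. A call meant a change of 1.5-fold or more with Benjamini-Hochberg adjusted p under 0.05. The members, the gene lists and the tests were chosen with earlier results of these data known. Genes named were the members, DICER1, pathway genes called in a clone against TPC1, the ICAM family and its integrins, genes within 100 kb of ICAM1, the 5 genes most like ICAM1 and cell type markers; others, among them MAP3K14, PLAU, BIRC2 and CXCL2, were named after their values were seen. Alternatives were another added value, filter, scaling and set of libraries, no minimum change, a replicate block, leaving out each library, and, added after seeing the data, a correction for GC content with and without the block.

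Replicate numbers were checked as pairs by the correlation of deviations from the line means. For TD5 and D11 all 3 exceeded 0.1 (0.163, 0.225 and 0.5), a hint of pairing from the data that no label states. In the other pairs of lines not all 3 did. The main fit did not use pairing, also for TD5 against D11. The replicate number entered only as a block over all lines, in the alternatives. Gene positions, exon lengths and GC content came from GENCODE on GRCh38. Python 3.11.15 was used with pandas 2.3.3, scipy 1.17.1 and matplotlib 3.10.9.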

Additional observations from a re-analysis of the deposited data

Results flagged for a closer look

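No member of the set differed between clones by the call used, and the results below are further pathway genes whose change against TPC1 differed between 2 clones by the limma test of that difference (adjusted p under 0.05 and at least 1.5-fold), as log2 differences.

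In WB1 relative to D11, MYD88 was higher by 3.599, IL1R1 by 0.668 and PLAU, the urokinase gene, by 0.604, and TNFRSF13C differed by −0.766. In TD5 relative to D11, MYD88 was higher by 3.339, and the differences were −1.863 for TLR4, −1.484 for CXCL8, −0.946 for CXCL1, −0.732 for CXCL2, −0.661 for BIRC2, the ubiquitin ligase cIAP1, and −0.609 for BCL2A1. In TD5 relative to WB1 they were −2.139 for TLR4, −1.369 for CXCL8, −0.906 for CXCL1, −0.825 for CXCL2 and −0.779 for BCL2A1. PLAU, BIRC2 and CXCL2 were called in no clone against TPC1 and were named after their values were seen.

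The BCL2A1 difference between TD5 and D11 rests on few reads, 19 to 23 scaled reads against 31 to 48. It lost its call in 6 of 21 alternatives. After GC correction it was at −0.441, with limma adjusted p = 0.0455, or 0.0622 with the replicate number as a block as well. The others were an added 4 (−0.279), median-of-ratios scaling (−0.579) and leaving out D11 replicate 1 (−0.547) or 2 (−0.537). The IL1R1 difference between WB1 and D11 fell under 1.5-fold with an added 4 (0.568) and without D11 replicate 2 (0.571) or WB1 replicate 1 (0.582). The causes were not tested.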

How the results depend on the processing

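No called value of a member, or of a further pathway gene called in a clone against TPC1, turned its direction in any alternative. PLAU, BIRC2 and CXCL2 were not followed gene by gene through the alternatives. Of the uncalled differences, 15 of 44 of the members and 7 of 31 of the genes called against TPC1 changed sign in at least 1. Their values ran from −0.33 to 0.29, and NFKB1 in D11 and BIRC3 in D11 and WB1 were among them. ICAM1 and NFKB2 kept their calls in all 3 clones in all 21 alternatives with a fold change, and TRAF1 lost them with an added 4 alone. The replicate number as a block changed no call of a member, and with it 0 members were called between TD5 and D11. With an added 4 the members called lower were 3 in D11, 3 in WB1 and 3 in TD5. Leaving out 1 library gave 3 to 5, 4 to 5 and 4 to 8. With no minimum change, 1 member (RELA) was called between TD5 and D11 and 1 between TD5 and WB1.

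With no minimum change, 11 further pathway genes were called lower and 12 higher in D11, 9 and 12 in WB1, 6 and 8 in TD5. Between WB1 and D11, TD5 and D11, and TD5 and WB1 there were 10, 23 and 9. The share of all genes so called is not given here, so nothing is read from these counts. At an unadjusted p under 0.05, 27, 30 and 22 of 58 differed from TPC1 in D11, WB1 and TD5. The shares of all genes tested were 44.6%, 42.7% and 27.1%. Between the clones, in the order above, 16, 35 and 24 did, against 19.3%, 36.9% and 30.4%. With an added 4 the further pathway genes called were 1 higher in D11, 0 lower in WB1, 0 higher in TD5, 2 between WB1 and D11 and 3 between TD5 and WB1. With GC correction, with or without the block, D11 had 2 lower and 1 higher, and with median-of-ratios scaling 1 higher. Leaving out 1 library gave 2 to 4 higher in D11, 0 to 1 lower in WB1, 0 to 2 higher in TD5 and 2 to 4 between WB1 and D11. An added 4 shrinks folds of low genes by construction, and no minimum change admits smaller ones. For the others the cause was not tested. Depth limits ICAM1 in the clones, where 3 reads are 2.85 to 4.72 scaled reads.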

Other observations

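FOXE1, a thyroid transcription factor among the cell type markers, was lower in all 3 clones, with 316, 286 and 280 scaled reads in TPC1, 123, 136 and 171 (D11), 151, 132 and 112 (WB1), and 131, 93 and 128 (TD5). LUM, the lumican gene among the fibroblast markers, had 78, 73 and 63 in TPC1, 0 in all 3 libraries of D11, 138, 212 and 148 in WB1 and 0 to 2 in TD5. The part of either in the results above was not tested.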
